A study of Rattus norvegicus with 35 samples.

Results

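Cultured neonatal rat ventricular myocytes that had been stretched for 24 h were read on 5 arrays and their own unstretched controls on another 5, out of 35 arrays in 7 groups. The 24 h cells were set against the unstretched control cells of the same experiment, which carry the letter b in the sample names. Every probe set of the rat array apart from the spiked-in controls was followed, 31042 in all, and they read 14217 genes.

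All cells came from ventricles of Sprague-Dawley rats aged 2 to 4 days, were enriched in myocytes by letting faster-adhering cells settle first, and were kept in serum-free medium on flexible-bottomed plates that a vacuum pulled down in cycles. No drug, virus or gene transfer is described for the groups considered here, so that cyclic deformation is the one stated difference between them. By the study's methods the groups of a culture began stretching at staggered times and ended it together, so that groups can share a culture, and the labels do not say which arrays do. The study ran a pair of experiments, each with its own control, and 48 h of stretch shared the second one with 24 h. Pre-plating enriches myocytes and does not purify them, and one array reads the RNA of all cells in its wells. The sample descriptions call the 5 arrays of a group biological replicates and do not tie a replicate number to a culture, so p-values here measure the spread between these arrays.

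Cardiac myocytes of the newborn rat no longer divide much, and they answer pulling on their membrane, matrix attachments and sarcomeres by growing. This hypertrophic growth is known for fetal genes being switched back on, such as those of the natriuretic peptides, for faster synthesis of ribosomes and protein, and for a turn from fatty acid oxidation towards glucose. Stretched myocytes also secrete peptides and growth factors that act on themselves and on the fibroblasts, endothelial cells and macrophages that accompany them.

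Values are array intensities on a linear scale. Differences are log2 fold changes of 24 h over control with their standard error (SE), and p-values come from a limma fit across all probe sets, with Benjamini-Hochberg adjustment. A gene is called upregulated or downregulated where its adjusted p was under 0.05, with a 1.5-fold or 2-fold limit added only where stated. A gene is read by its brightest probe set, and levels of different genes are not compared, because probes differ in how brightly they bind.

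Median array intensities were 91.4 to 94.3 in the 24 h group, against 92.7 to 95.8 in the control group, and arrays of a group correlated at 0.990 to 0.998 at 24 h and at 0.991 to 0.998 in control, over all probe sets on the log2 scale. In a principal component analysis of the 24 h, 48 h and control arrays, the first component held 48.8% of the variance, and it placed the 24 h arrays between -5.78 and 15.7, the control arrays between -36.1 and -26.4 and the 48 h arrays between 19.5 and 31.4. Replicate 1 of 24 h lay nearest to the controls and replicate 5 of control lay nearest to the stretched arrays. Replicate 4 of both groups stood apart on the second component, which held 18.9% of the variance, with scores of -31.4 at 24 h and -30.7 in control. None of 19 cardiomyocyte markers was dim in both groups (a mean log2 intensity under 6), but neither was any of 14 markers of the cardiac fibroblast, so the cultures held both kinds of RNA.

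After 24 h of stretch 3352 genes were called, 23.6% of those measured, with 1917 upregulated (13.5%) and 1435 downregulated (10.1%). A change of at least 1.5-fold was found in 472 genes (3.32%), of which 243 were higher and 229 were lower, and 100 genes (0.703%) changed at least 2-fold, 60 upwards and 40 downwards. The 5 stretched arrays did not overlap the 5 control arrays in 2613 genes (18.4%), lying above them in 1467 (10.3%) and below them in 1146 (8.06%). Counted by probe set, 18.3% were called, 2.91% with a change of at least 1.5-fold and 0.515% with one of at least 2-fold. The median log2 fold change over all genes was 0.03. These shares are the background against which each gene group below is to be read. The plot of all genes shows secreted proteins among the largest rises and interferon-stimulated genes among the largest falls.

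**Figure D1:**
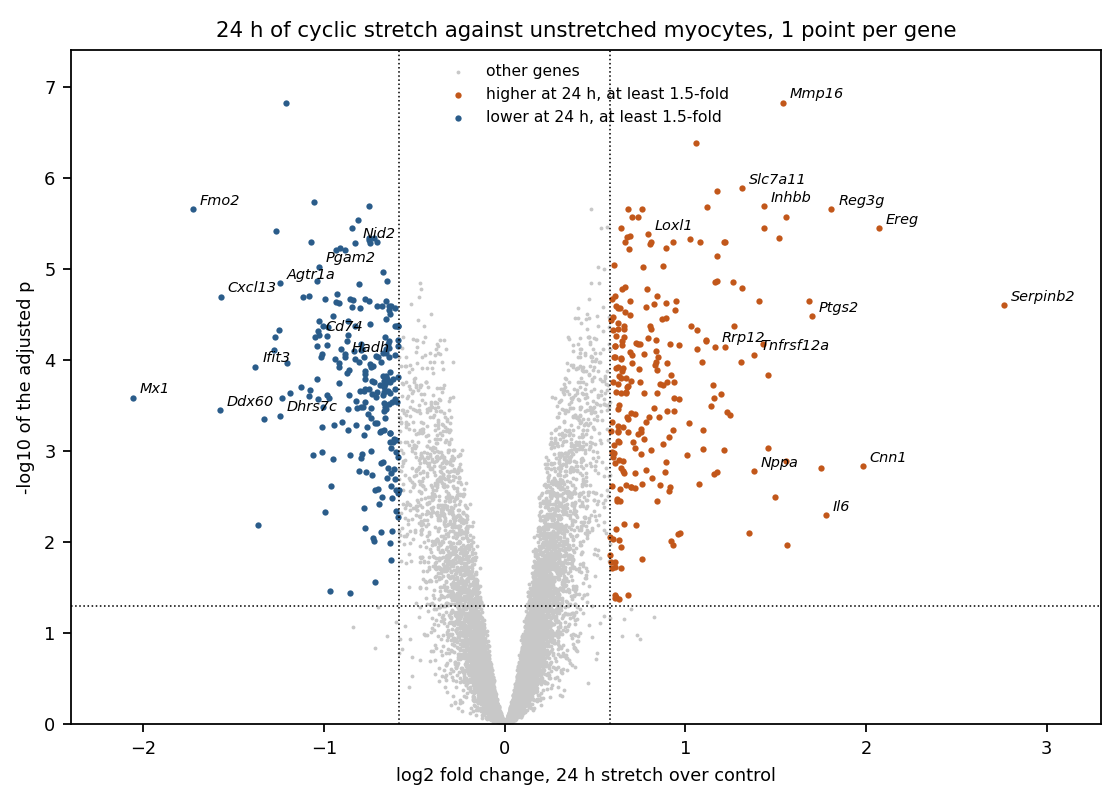
Log2 fold change of 24 h stretch over control (horizontal axis) against -log10 of the adjusted p from limma (vertical axis), with 1 point for each of 14217 genes. Coloured points are the 472 genes called with a change of at least 1.5-fold, 243 to the right and 229 to the left, and the named points include Serpinb2 at 2.77 and Mx1 at -2.06.

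Several of the 12 genes that rose most without overlap between the groups encode secreted proteins or enzymes that make secreted mediators. Serpinb2, plasminogen activator inhibitor 2, read 315, 237, 606, 298 and 395 on the 24 h arrays, against 45.4, 51.8, 67.9, 52.4 and 43.9 on the control arrays. All stretched arrays lay far above all control arrays, with replicate 3 brightest, and the gene was 6.80-fold higher (log2 2.77, SE 0.31, adjusted p = 2.53e-05). Reg3g, a secreted lectin of the regenerating islet family that is induced in the hypertrophied heart, read 310.3, 305, 305, 245 and 256 on the 24 h arrays, against 67.5, 90.2, 62.2, 100.5 and 90.4 on the control arrays. Its groups were wide apart and tight within, and it was 3.50-fold higher (log2 1.81, SE 0.15, adjusted p = 2.21e-06). Membrane-type matrix metalloproteinase Mmp16 read 97.7, 134, 111, 139 and 122 on the 24 h arrays, against 41.3, 37.5, 42.6, 45.5 and 39.5 on the control arrays. No array of one group came near the other, and Mmp16 had a log2 fold change of 1.54 (SE 0.09) with the lowest adjusted p of the genes described here, 1.51e-07. The extracellular glycoprotein reelin, Reln, rose 2.94-fold, the arginine-synthesis enzyme Ass1 2.75-fold and the Dapper family protein Dact2 2.71-fold, in each case with all stretched arrays above all controls.

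Genes of growth factor signalling through the EGF receptor stood out in that top group. Of 11 measured ligands and receptors of this family, 4 were upregulated and 1 was downregulated, and all 4 that rose were ligands. Epiregulin, Ereg, read 274, 211, 152, 187 and 180.4 on the 24 h arrays, against 40.7, 41.3, 48.8, 51.8 and 52.7 on the control arrays, and amphiregulin, Areg, read 192, 225, 173, 231 and 198 on the 24 h arrays, against 69.6, 57.7, 74.6, 74.4 and 79.5 on the control arrays. Both ligands were higher on every stretched array, Ereg 4.21-fold (adjusted p = 3.60e-06) and Areg 2.87-fold (adjusted p = 4.56e-06). Heparin-binding EGF-like growth factor, Hbegf, rose 2.30-fold, at 176 to 282 on the 24 h arrays, against 77.7 to 163 on the control arrays. Transforming growth factor alpha, Tgfa, rose 2.17-fold, at 166 to 235 on the 24 h arrays, against 74.7 to 132 on the control arrays. The receptor itself, Egfr, went the other way, with 452 to 553 on the 24 h arrays, against 574 to 748 on the control arrays and a log2 fold change of -0.41 (adjusted p = 0.00107). Tgfa and Egfr were added after their values were seen. Among 16 measured genes of the feedback on the ERK kinases, 5 were upregulated and 3 downregulated, so that the 27 genes of both kinds had a median of -0.02. The regulators of G protein signalling moved apart, Rgs2 with a log2 fold change of 1.16 and Rgs4 with -0.51, and the ERK pathway inhibitor Spry1 fell by 0.48 on the log2 scale.

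Il6 and 3 of 15 prostaglandin genes were also upregulated. Il6, the cytokine of the acute phase response, read 82.5, 64.0, 244, 66.8 and 188 on the 24 h arrays, against 35.7, 34.1, 28.3, 38.6 and 25.6 on the control arrays. Replicates 3 and 5 were the brightest of the stretched arrays by far and the other 3 lay much closer to control, yet the groups did not overlap, and the fold was 3.43 (log2 1.78, SE 0.40, adjusted p = 0.00506). Ptgs2, the inducible cyclooxygenase that makes the prostaglandin precursor, read 1028, 882, 1559, 881 and 1648 on the 24 h arrays, against 398, 320.1, 374, 309 and 382 on the control arrays. It was 3.25-fold higher (adjusted p = 3.33e-05), and its high arrays were again replicates 3 and 5. The median of the 15 was -0.01, and 2 of them were downregulated (1 without replicate 4 of both groups). Over all genes 13.5% were upregulated and 10.1% downregulated, so these counts are not far from the background. The 3 that rose were cytosolic phospholipase A2, Pla2g4a, which frees arachidonic acid (log2 0.80), Ptgs2, and prostacyclin synthase, Ptgis (log2 1.08, adjusted p = 5.02e-06). Bdkrb2, the bradykinin B2 receptor, was 3.21-fold higher, with 174 to 364 on the 24 h arrays, against 54.0 to 90.8 on the control arrays. A second Bdkrb2 probe set rose by 0.85 on the log2 scale and a dim one was not called (log2 0.23, adjusted p = 0.142).

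Immediate early and AP-1 genes encode transcription factors and regulators that growth stimuli switch on within minutes, and after 24 h 14 of 29 were upregulated and 1 was downregulated, with a median of 0.36. Fosl1, a Fos family member of AP-1, read 236, 249, 198, 253 and 211 on the 24 h arrays, against 72.8, 80.1, 75.2, 89.0 and 112 on the control arrays. Myc, the growth-promoting transcription factor, read 841, 819, 731, 883 and 693 on the 24 h arrays, against 327, 295, 316, 349 and 425 on the control arrays. Neither gene had a control array within reach of the stretched ones, and the folds were 2.70 for Fosl1 (adjusted p = 6.76e-05) and 2.33 for Myc (adjusted p = 5.02e-06). The early response gene Ier3 rose by 0.97 on the log2 scale. The member of the list that fell was Klf15, a repressor of cardiac growth in mice rather than an early response gene. It stood at 0.525 of the control level (log2 -0.93, adjusted p = 1.90e-05). Creb5, which encodes a CRE-binding protein and was added after its values were seen, rose 1.89-fold on its brightest annotated probe set.

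Windows ran from 250 bases before to 50 after the start of each gene, in RefSeq sequence of build GRCr8. They were matched by Entrez gene ID for 11700 of the 14217 genes. The CRE, the 8 letters TGACGTCA to which CREB and ATF proteins bind, was looked for in these windows. It was present in 2.85% of all windows, in 16 of the 191 windows of genes at least 1.5-fold higher (8.38%) and in 2 of the 182 of genes at least 1.5-fold lower (1.10%). The motif reads the same on both strands. The AP-1 letters TGACTCA, searched on both strands, were in 3.79% of all windows, 4.71% of those of the higher genes and 7.69% of those of the lower genes. The windows of Il6 and Areg, which are among these 12 genes, are shown with the CRE in capitals, written 5′ to 3′ on the strand of the gene. The Il6 window lies at chr4:5894526-5894825 on the minus strand and its CRE begins 162 bases before the start, while the Areg window lies at chr14:17265592-17265891 on the minus strand and its CRE begins 91 bases before the start. A match describes the letters and does not show that a factor was bound.
Il6: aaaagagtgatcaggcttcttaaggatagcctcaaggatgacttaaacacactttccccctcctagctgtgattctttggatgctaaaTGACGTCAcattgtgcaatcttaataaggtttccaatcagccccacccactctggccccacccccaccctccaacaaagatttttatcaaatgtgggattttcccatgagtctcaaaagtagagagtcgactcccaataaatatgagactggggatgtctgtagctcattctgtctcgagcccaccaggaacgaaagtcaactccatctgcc
Areg: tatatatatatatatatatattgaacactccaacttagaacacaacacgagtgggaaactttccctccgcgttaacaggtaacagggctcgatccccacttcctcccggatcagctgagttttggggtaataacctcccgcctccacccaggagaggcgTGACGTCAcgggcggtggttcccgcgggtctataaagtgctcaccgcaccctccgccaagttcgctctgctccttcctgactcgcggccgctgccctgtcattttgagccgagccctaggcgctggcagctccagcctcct

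Of 22 measured hypertrophy markers, 13 were upregulated and 4 downregulated, with a median of 0.46. The list holds genes that the study named as stretch-responsive in its account of these arrays. Among them are Reg3g, Lmcd1, Tnfrsf12a, Bmp2, Phactr1 and Lrrc39. The count was thus partly fixed beforehand and cannot show that a hypertrophic program was raised. Nppa, which encodes atrial natriuretic peptide, read 9010, 17375, 17050, 15813 and 17997 on the 24 h arrays, against 5228, 3890, 6664, 3754 and 12381 on the control arrays. Replicate 1 lay far below the other 4 stretched arrays and replicate 5 of control far above the other 4 controls, so the groups overlapped, and the gene was 2.61-fold higher (log2 1.38, SE 0.27, adjusted p = 0.00166). Without replicate 1 of 24 h the log2 fold change of Nppa was 1.57, and without replicate 5 of control it was 1.66. Nppb, of B-type natriuretic peptide, read 12389, 14046, 12539, 14258 and 13395 on the 24 h arrays, against 8004, 6798, 11584, 6911 and 12558 on the control arrays. Here the stretched arrays were close together. Replicate 5 of control lay within their range and replicate 3 of control came close below it. The log2 fold change was 0.59 (SE 0.14, adjusted p = 0.00886).

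Other hypertrophy markers were separated more clearly. Lmcd1, a LIM domain protein, read 918 to 2060 on the 24 h arrays, against 287 to 642 on the control arrays and was 2.82-fold higher (adjusted p = 0.00321). Tnfrsf12a, the receptor of the cytokine TWEAK, read 2320, 2514, 2426, 3279 and 2478 on the 24 h arrays, against 927, 774, 1338, 728 and 1389 on the control arrays. The lowest stretched array was well above the highest control, at a fold of 2.60 (adjusted p = 8.79e-05). Bmp2, a bone morphogenetic protein, rose 1.92-fold. Of the members that fell, Phactr1, a phosphatase and actin regulator, had a log2 fold change of -0.74 (adjusted p = 0.000121) and Lrrc39, a protein of the sarcomeric M-band, one of -0.67 (adjusted p = 8.29e-05).

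Of 7 measured genes that process natriuretic peptides or bind them as receptors, 1 was upregulated and 2 were downregulated, with a median of 0.00. The 7 do not include Corin. Corin, the protease that cuts pro-ANP, is named for its probe set by the list of array identifiers that accompanies the study, and it read 182, 121, 118, 150.0 and 112 on the 24 h arrays, against 422, 368, 362, 432 and 263 on the control arrays. Its highest stretched array was below the lowest control, and it stood at 0.369 of the control level (log2 -1.44, SE 0.15, adjusted p = 1.74e-05). The clearance receptor gene Npr3 read 51.7 to 67.0 on the 24 h arrays, against 69.5 to 91.6 on the control arrays, with a log2 fold change of -0.46 (adjusted p = 0.00281), and a second probe set that the same list gives to this gene had -1.45 (adjusted p = 3.96e-05).

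**Figure D2:**
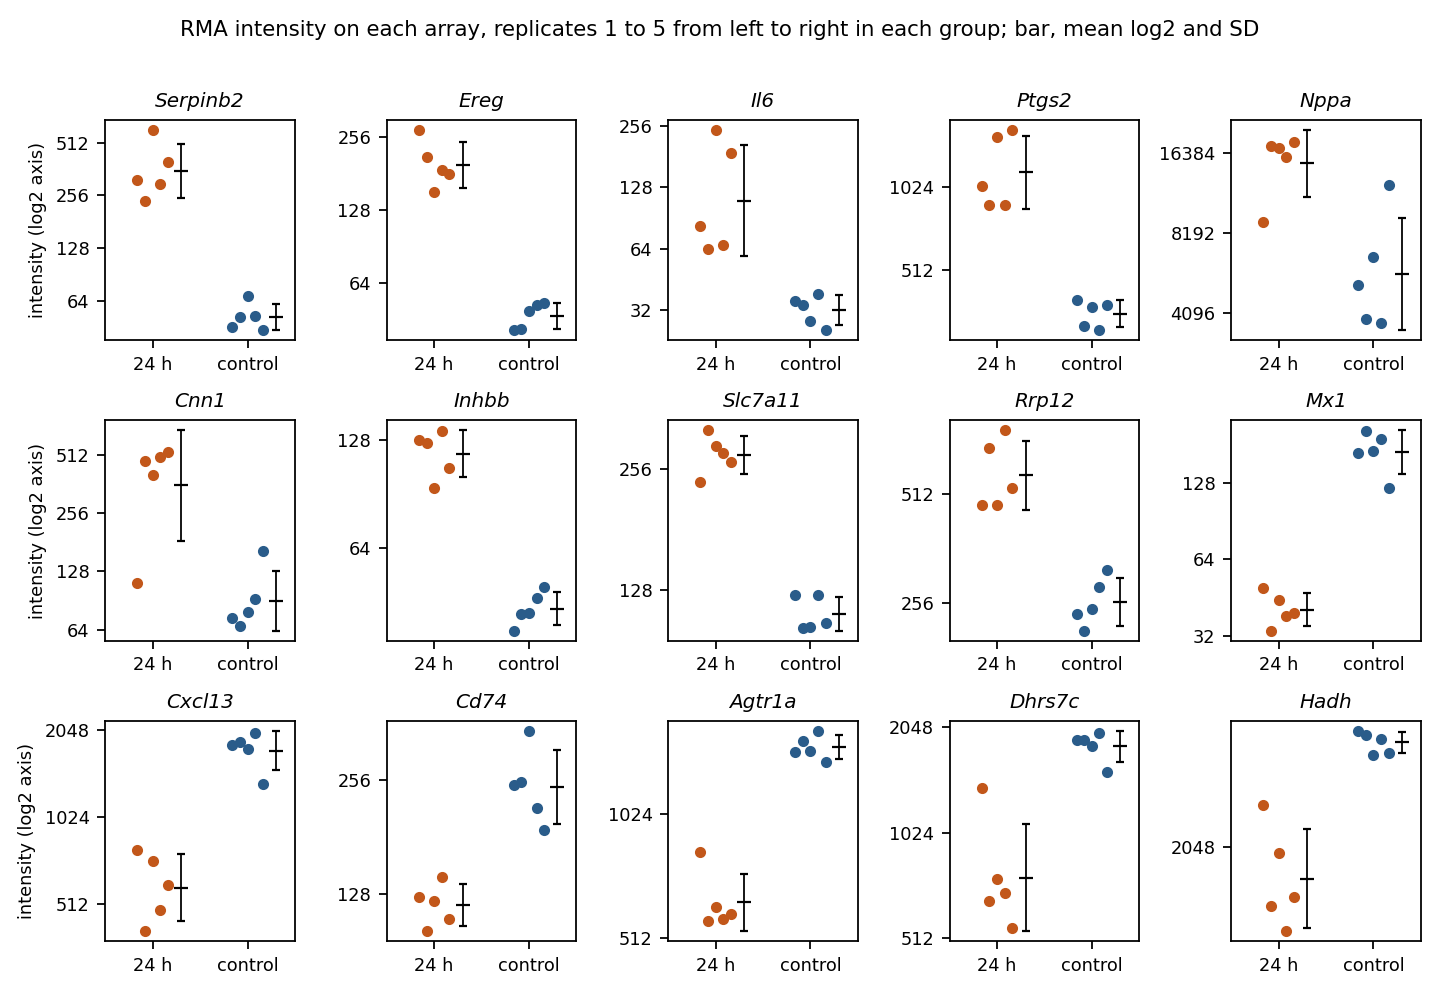
Intensity on each array (points, log2 axis) of 15 genes, with the 5 arrays of 24 h stretch left of the 5 control arrays in each panel, and the mean and SD of the log2 values. Serpinb2, Ereg, Il6, Ptgs2, Inhbb, Slc7a11 and Rrp12 sit above all their controls and Mx1, Cxcl13, Cd74, Agtr1a, Dhrs7c and Hadh below all of theirs, while single arrays of Nppa and Cnn1 overlap.

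Contractile genes gave no single direction. Of 34 sarcomere genes 7 were upregulated and 8 downregulated, at a median of 0.01. The atrial light chains, which the adult ventricle hardly makes, moved in opposite directions: Myl4 read 1148, 2100, 2485, 1838 and 2430 on the 24 h arrays, against 1153, 1002, 1619, 928 and 1732 on the control arrays, and Myl7 read 680.3, 543, 551, 639.6 and 555 on the 24 h arrays, against 852, 938, 861, 944 and 816 on the control arrays. Myl4 overlapped and was 1.55-fold higher (adjusted p = 0.0420, not below the threshold without any 1 of replicates 2 to 5 of 24 h or 1, 2 and 4 of control), whereas Myl7 was lower on every stretched array, at 0.671 of control (adjusted p = 0.000116). Lrrc10, a leucine-rich protein of the sarcomere and dyad, stood at 0.440 of control with 499.6 to 735 on the 24 h arrays, against 1176 to 1424 on the control arrays, and the titin cap protein Tcap was 1.38-fold higher.

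Genes of the actin cytoskeleton that serum response factor is known to drive were upregulated in 15 of 28 cases and downregulated in 1 (2 without replicate 4 of 24 h), with a median of 0.25. Calponin 1, Cnn1, read 112, 474, 403, 496 and 530.2 on the 24 h arrays, against 73.6, 67.0, 78.5, 92.4 and 163 on the control arrays. Replicate 1 was the only stretched array inside the range of the controls, and Cnn1 was 3.95-fold higher (log2 1.98, SE 0.38, adjusted p = 0.00146), or 2.40 on the log2 scale without that array. Smooth muscle actin, Acta2, read 972 to 2027 on the 24 h arrays, against 484 to 1077 on the control arrays, and transgelin, Tagln, 1201 to 2616 on the 24 h arrays, against 862 to 1371 on the control arrays. Both overlapped through replicate 1 of 24 h and replicate 5 of control, with log2 fold changes of 1.08 (adjusted p = 0.00232) and 1.01 (adjusted p = 0.00110). The actin-associated Pdlim7 rose without overlap (log2 0.67), and smoothelin, Smtn, was the member that fell (log2 -0.38, adjusted p = 0.0148). The 12 markers of smooth muscle cells and pericytes, which hold Cnn1, Acta2 and Tagln, summed to 12383 to 17215 on the 24 h arrays, against 11023 to 13465 on the control arrays, with 5 members upregulated and 2 downregulated, and the part of that cell type in these changes was not tested. In bulk RNA fewer cells of a type and less RNA per cell cannot be told apart.

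Of 46 TGF-beta and BMP genes, 20 were upregulated and none downregulated (the median was 0.16), and 10 of the 20 passed 1.5-fold. Downregulated members numbered 3 with array weights, 2 without replicate 1 of 24 h, and 1 without replicate 3 or without replicate 5 of control. By role, 13 of 25 ligands and antagonists and 7 of 21 receptors and targets rose. Inhbb, the activin B subunit, read 128, 126, 94.2, 136 and 107 on the 24 h arrays, against 37.6, 41.9, 42.2, 46.3 and 49.9 on the control arrays. Its stretched arrays were all far above control, at 2.70-fold (log2 1.43, SE 0.11, adjusted p = 2.06e-06). Fstl3, a follistatin-like protein that binds and blocks activin, read 424, 867, 681, 918 and 887 on the 24 h arrays, against 312, 273, 256, 276 and 361 on the control arrays. It was 2.48-fold higher with replicate 1 lowest of the stretched arrays and still above every control. The activin A subunit Inhba rose 2.41-fold on its brighter probe set, and on its other one, which had a mean log2 intensity of 6.79 at 24 h and 6.75 in control, the log2 fold change was 0.04 (adjusted p = 0.693). Tgfb2 was 2.37-fold higher at 1247 to 2125 on the 24 h arrays, against 511 to 1255 on the control arrays, where replicate 1 of 24 h and replicate 5 of control met. Tgfb1 had a log2 fold change of 0.28 (adjusted p = 0.0116, and 0.0693 without replicate 4 of both groups).

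Matrix genes divided between rises and falls. Among collagens and the enzymes that process them, 11 of 33 were upregulated and 4 downregulated, and 7 were upregulated without replicate 4 of both groups. Among other matrix genes the counts were 10 and 9 of 37 (6 upregulated without replicate 2 or without replicate 4 of 24 h), and among matrix proteases and their inhibitors 10 and 9 of 34. Tenascin C, Tnc, an adhesion-modulating protein of injured heart, read 1129, 1666, 1196, 1988 and 1386 on the 24 h arrays, against 473, 506, 540.5, 550.3 and 665 on the control arrays. Every stretched array was above every control, at a fold of 2.65 (adjusted p = 2.28e-05). Fibulin 2, Fbln2, rose 2.14-fold, the fibril-associated Col12a1 1.77-fold and the cross-linking enzyme Loxl1 1.74-fold. On the other side, fibromodulin, Fmod, which binds collagen fibrils, read 1497, 1007, 844, 1069 and 867 on the 24 h arrays, against 2138, 2125, 1729, 2289 and 1995 on the control arrays. Its groups did not overlap, and it stood at 0.505 of control (adjusted p = 6.89e-05). The basement membrane protein nidogen 2, Nid2, fell to 0.564 of control and the gelatinase Mmp9 to 0.637. The chains of type VIII collagen parted, Col8a1 with a log2 fold change of 0.61 (adjusted p = 0.0187, and 0.0505 without replicate 4 of 24 h) and Col8a2 with -0.59 (adjusted p = 0.00270). Osteopontin, Spp1, was not called (log2 0.04, adjusted p = 0.872). The 14 fibroblast markers summed to 74772 to 78171 on the 24 h arrays, against 78601 to 81696 on the control arrays, with 3 upregulated (1 without any 1 of replicates 3 and 5 of 24 h or 1 of control) and 1, the platelet-derived growth factor receptor Pdgfra, downregulated (log2 -0.64), and the part of fibroblast number in the matrix genes was not tested.

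Calcium handling genes fell more often than they rose, with 10 of 28 downregulated, 1 upregulated and a median of -0.11. Dhrs7c, a dehydrogenase/reductase of the sarcoplasmic reticulum, read 1374, 652, 753, 689 and 549.6 on the 24 h arrays, against 1870, 1882, 1804, 1967 and 1518 on the control arrays. Replicate 1 was the brightest of the stretched arrays and still below the controls, and the level was 0.423 of control (log2 -1.24, SE 0.20, adjusted p = 0.000412). Hrc, a calcium-binding protein of the sarcoplasmic reticulum lumen, had a log2 fold change of -0.66 (adjusted p = 0.000343). Cacna1c, the pore of the L-type calcium channel, read 907, 806, 856, 793 and 805 on the 24 h arrays, against 1228, 1306, 1127, 1404 and 1240 on the control arrays. Its groups were tight and apart, at 0.662 of control (adjusted p = 4.23e-05). The calcium pump gene Atp2a2 had a log2 fold change of -0.14 (adjusted p = 0.0467), and this call did not hold in several other fits, among them those without any 1 of replicates 2 to 5 of 24 h or 1 to 4 of control. Other Atp2a2 probe sets with lower means had -0.47 (adjusted p = 0.00247) and -0.49 (adjusted p = 0.00637), while 2 more were not called, a bright one at -0.15 (adjusted p = 0.0999) and a dim one at 0.01. The member that rose was Casq1, the calsequestrin of skeletal muscle, which read 366, 1203, 1234, 1098 and 1334 on the 24 h arrays, against 330.2, 311, 363, 301 and 654 on the control arrays. It was 2.55-fold higher (adjusted p = 0.00790), with replicate 1 of 24 h lying among the controls and replicate 5 of control well above the other controls.

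Ion channels for sodium and potassium had 10 of 24 genes downregulated and 2 upregulated, at a median of -0.13. Kcnip2, the subunit that brings the transient outward potassium channel to the membrane, read 172, 119, 112, 119 and 92.2 on the 24 h arrays, against 191, 230.3, 309, 264 and 233 on the control arrays. It stood at 0.497 of control without overlap (adjusted p = 0.00102), and its dimmer probe sets had log2 fold changes of -0.15 and -0.37 and were not called. The pore subunit Kcnd2 of the same channel overlapped between groups, with a log2 fold change of -0.58 (adjusted p = 0.00967), and the sodium channel subunit Scn4b had -0.63 (adjusted p = 0.0157, and 0.0701 without replicate 4 of both groups). Another sodium channel subunit, Scn3b, read 373, 837, 662, 805 and 841 on the 24 h arrays, against 218, 143, 255, 163 and 493 on the control arrays. Scn3b rose 2.94-fold (adjusted p = 0.00128), with a log2 fold change of 1.77 without replicate 1 of 24 h and 1.83 without replicate 5 of control. The background potassium channel Kcnk3 rose by 0.40 on the log2 scale (adjusted p = 0.0196, and 0.0533 without replicate 4 of 24 h, which left 1 gene of the group upregulated). Of 18 genes of the intercalated disc 6 were downregulated and none upregulated, but 3 were downregulated without any 1 of replicates 2 and 5 of 24 h and 1, 2 and 4 of control, 2 without replicate 4 of both groups, and 1 was upregulated without replicate 1 of 24 h.

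Cardiac transcription factors fell in 9 of 25 cases and rose in 1 (2 without replicate 5 of control), at a median of -0.14. Irx4, which keeps the ventricular identity of myocytes in chick and mouse, read 1100, 914, 975, 866 and 927 on the 24 h arrays, against 1681, 1762, 1444, 1866 and 1473 on the control arrays. No stretched array reached a control, and the level was 0.582 of control (adjusted p = 0.000217). Hopx, a homeodomain-only cofactor of serum response factor, had a log2 fold change of -0.49 (adjusted p = 0.00405). Gata6 read 448 to 957 on the 24 h arrays, against 950.4 to 1081 on the control arrays, with -0.55 on its brightest probe set (adjusted p = 0.0169) and 0.06 on a dimmer one (adjusted p = 0.624). Mef2d was the member that rose (log2 0.29, adjusted p = 0.00839), and a second probe set of it was not called (log2 0.04).

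Vasoactive peptide and adrenergic genes changed in both directions. Of 23 genes of this group 4 were upregulated and 4 downregulated, beside 13.5% and 10.1% over all genes. Its 14 receptors had 3 upregulated and 4 downregulated. The angiotensin type 1 receptor gene Agtr1a read 828, 563, 610.5, 571 and 587 on the 24 h arrays, against 1439, 1536, 1449, 1622 and 1364 on the control arrays. Replicate 1 was the highest of the stretched arrays, but all 5 were far below control, and the level was 0.422 of control (log2 -1.24, SE 0.13, adjusted p = 1.44e-05). The vasodilator peptide adrenomedullin, Adm, read 1885, 1547, 1533, 1394 and 1200 on the 24 h arrays, against 816, 773, 872, 738 and 835 on the control arrays. Its groups were apart at 1.86-fold (adjusted p = 2.35e-05), and Ramp3, a subunit of adrenomedullin receptors, had a log2 fold change of 0.65 (adjusted p = 0.0114). Endothelin 1, Edn1, was not called (log2 0.18, SE 0.12, adjusted p = 0.353). The endothelin A receptor gene Ednra, on a probe set named through the same identifier list, read 284 to 796 on the 24 h arrays, against 666 to 1054 on the control arrays and missed the threshold (log2 -0.69, SE 0.23, adjusted p = 0.0519). Its adjusted p from limma was 0.0142 with array weights and 0.0188 to 0.122 with 1 array left out, under the threshold without replicate 1 or 3 of 24 h or replicate 4 of control.

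Genes of fatty acid metabolism were mostly lower. Of 43 genes for the uptake and oxidation of fatty acids, 29 were downregulated and 1 upregulated, with a median of -0.28. Divided by role, 17 of 20 enzymes of beta-oxidation and thioesterases fell, 9 of 11 genes of uptake and activation fell, and 3 of 12 regulators fell while 1 rose. Hadh, the short-chain hydroxyacyl-CoA dehydrogenase of beta-oxidation, read 2469, 1566, 1992, 1400 and 1631 on the 24 h arrays, against 3449, 3388, 3099, 3333 and 3120 on the control arrays. All stretched arrays were below all controls, at 0.542 of control (log2 -0.88, SE 0.12, adjusted p = 9.21e-05). Ech1, a dienoyl-CoA isomerase, read 5358, 3178, 3949, 3004 and 3346 on the 24 h arrays, against 6174, 5918, 5742, 5513 and 5455 on the control arrays. Replicate 1 of 24 h came close to the controls without reaching them, and the level was 0.640 of control (adjusted p = 0.00153). Among the regulators, Ppargc1a, the coactivator of mitochondrial biogenesis, had a log2 fold change of -0.61 (adjusted p = 0.000208) and the retinoid receptor Rxrg one of -0.97 (adjusted p = 0.000262). The estrogen-related receptor Esrrg was the member that rose (log2 0.17, adjusted p = 0.0362), a call lost without any 1 of replicates 2, 3 and 4 of 24 h or 1, 2, 3 and 5 of control. A second bright Esrrg probe set was called higher as well (log2 0.28, adjusted p = 0.0132).

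Oxidative enzymes fell by smaller amounts. In the respiratory chain and citric acid cycle 15 of 41 genes were downregulated and none upregulated (10 downregulated without replicate 4 of both groups, and 23 without moderation of variances or with a trend and robust estimation), at a median of -0.11, and none changed 1.5-fold. Cytochrome c oxidase subunit Cox8b, of heart and muscle, had a log2 fold change of -0.44, the succinyl-CoA ligase subunit Sucla2 one of -0.31 and mitochondrial isocitrate dehydrogenase, Idh2, one of -0.25. For Idh2 the values were 6972 to 7945 on the 24 h arrays, against 8583 to 9119 on the control arrays, narrow enough for an adjusted p of 0.00107.

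Genes of glucose and glycogen metabolism gave no single direction, with 5 of 33 upregulated, 10 downregulated and a median of -0.02. Muscle phosphoglycerate mutase, Pgam2, read 481, 348, 376, 382 and 319 on the 24 h arrays, against 722, 830.2, 763, 847 and 700.2 on the control arrays, and it stood at 0.490 of control (adjusted p = 9.44e-06). Muscle phosphofructokinase, Pfkm, had a log2 fold change of -0.42 (adjusted p = 0.000422), while the platelet isoform, Pfkp, had 0.43 (adjusted p = 0.00023). No stretched array of Pfkm or Pfkp fell within its control range. The monocarboxylate transporter Slc16a3, which exports lactate, rose by 0.43 on the log2 scale. Of 9 genes that buffer energy or store oxygen 3 were downregulated, among them muscle creatine kinase, Ckm (log2 -0.34), and the creatine-synthesis enzyme Gamt (log2 -0.67).

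Of the 48 gene lists, that of ribosome biogenesis had the largest share of members that rose. Of its 44 measured genes 40 were upregulated and none downregulated, with a median of 0.46, and in 35 of them the stretched arrays lay wholly above the controls. Rrp12, which exports and matures ribosomal particles in yeast, read 476, 686, 477, 767 and 532 on the 24 h arrays, against 238, 215, 246, 284 and 316 on the control arrays. The lowest stretched array was well above the highest control, and the fold was 2.24 (log2 1.16, SE 0.15, adjusted p = 7.16e-05). Bop1, of the complex that processes the large-subunit RNA, rose 1.65-fold, Gar1, of the box H/ACA particles that modify ribosomal RNA, 1.65-fold, and Heatr1, of the small-subunit processome, 1.64-fold. Over the alternative fits and leave-outs between 38 and 43 of the 44 genes were upregulated.

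The letters CACGTG, the E-box that Myc and its relatives bind and that reads the same on both strands, were present in 8.94% of all windows and in 16 of 41 windows of the measured ribosome biogenesis genes (39.0%), or 14 of the 37 windows of upregulated ones (37.8%). Among the 191 windows of genes at least 1.5-fold higher it was found in 37 (19.4%), and among the 182 of lower genes in 8 (4.40%). The window of Rrp12, the member that rose most, is shown with its E-box in capitals at chr1:250655269-250655568 on the minus strand, where the E-box begins 4 bases after the start.
Rrp12: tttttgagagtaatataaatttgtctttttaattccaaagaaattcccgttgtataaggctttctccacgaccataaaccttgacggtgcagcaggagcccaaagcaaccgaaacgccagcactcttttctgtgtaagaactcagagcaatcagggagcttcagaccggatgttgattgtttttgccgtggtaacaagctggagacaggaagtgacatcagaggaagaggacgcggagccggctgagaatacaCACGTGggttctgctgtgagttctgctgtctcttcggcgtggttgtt

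Of 44 targets of the transcription factor ATF4, amino acid transporters and tRNA synthetases, 36 were upregulated and none downregulated (median 0.35), and 28 were upregulated without replicate 4 of both groups. The rise took in 12 of 13 tRNA synthetases, 10 of 11 transporters and 14 of 20 regulators and enzymes. Slc7a11, the cystine/glutamate exchanger, read 238, 320.0, 293, 281 and 267 on the 24 h arrays, against 125, 103, 104, 124 and 106 on the control arrays. Its groups were far apart at 2.49-fold (log2 1.32, SE 0.10, adjusted p = 1.30e-06). The cationic amino acid transporter Slc7a3 read 123, 256, 222, 222 and 254 on the 24 h arrays, against 93.9, 82.0, 81.9, 89.3 and 102 on the control arrays. Replicate 1 was lowest of the stretched arrays, closer to the controls than to its group, and the fold was 2.33. The large neutral amino acid transporter Slc7a5 rose 1.68-fold and the mitochondrial serine hydroxymethyltransferase Shmt2 1.75-fold.

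Antioxidant genes of the Nrf2 program included 26 upregulated and 3 downregulated of 50 (6 downregulated without replicate 1 of 24 h and 5 with array weights), at a median of 0.25. Sulfiredoxin, Srxn1, which repairs peroxiredoxins, read 2081, 2295, 1845, 2318 and 1652 on the 24 h arrays, against 869, 839.9, 835, 934 and 875 on the control arrays. It was 2.32-fold higher without overlap (adjusted p = 5.02e-06). The aldo-keto reductase Akr1b8 rose 2.16-fold and the microsomal glutathione transferase Mgst2 1.92-fold. The 3 that fell included the glutathione transferase Gstm2 (log2 -0.52, adjusted p = 0.0163) and the monooxygenase Fmo1 (log2 -0.47, adjusted p = 0.00135). The core of the antioxidant response element, TGACNNNGC on either strand, was in 14.4% of all windows and in 7 of 43 windows of this group (16.3%).

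Of 26 genes of cholesterol synthesis and uptake 19 were upregulated and 1 was downregulated (none without replicate 4 of 24 h), with a median of 0.38. Idi1, the isopentenyl diphosphate isomerase, read 4272, 5599, 5513, 5694 and 6464 on the 24 h arrays, against 3616, 3275, 3809, 3188 and 3738 on the control arrays. Its stretched arrays were all higher, at 1.55-fold (adjusted p = 0.000149). The sterol reductase Hsd17b7 rose 1.61-fold and the lanosterol demethylase Cyp51 had a log2 fold change of 0.58. The largest rise among the 26, 2.23-fold, was that of the stearoyl-CoA desaturase Scd, which acts on fatty acids and not on sterols. The member that fell was the cholesterol exporter Abca1 (log2 -0.39, adjusted p = 0.0183, and 0.05004 without replicate 4 of 24 h).

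Chaperones of the endoplasmic reticulum were upregulated in 10 of 21 cases and cytosolic heat shock genes in 10 of 23, with none downregulated in either group. Hsph1, a large Hsp70-related chaperone, read 1753, 1834, 1716, 1738 and 1702 on the 24 h arrays, against 1054, 1016, 1004, 1162 and 1143 on the control arrays. Its range was narrow in both groups and the fold was 1.63 (adjusted p = 2.72e-06). Hspa4l, of the same family, rose 1.67-fold, and in the endoplasmic reticulum Sdf2l1 rose 1.56-fold and Creld2 1.47-fold. Of 31 proteasome subunit genes 13 were upregulated, Psmd8 most (log2 0.42, adjusted p = 0.0107), none changed 1.5-fold, and 7 were upregulated without replicate 4 of both groups.

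**Figure D3:**
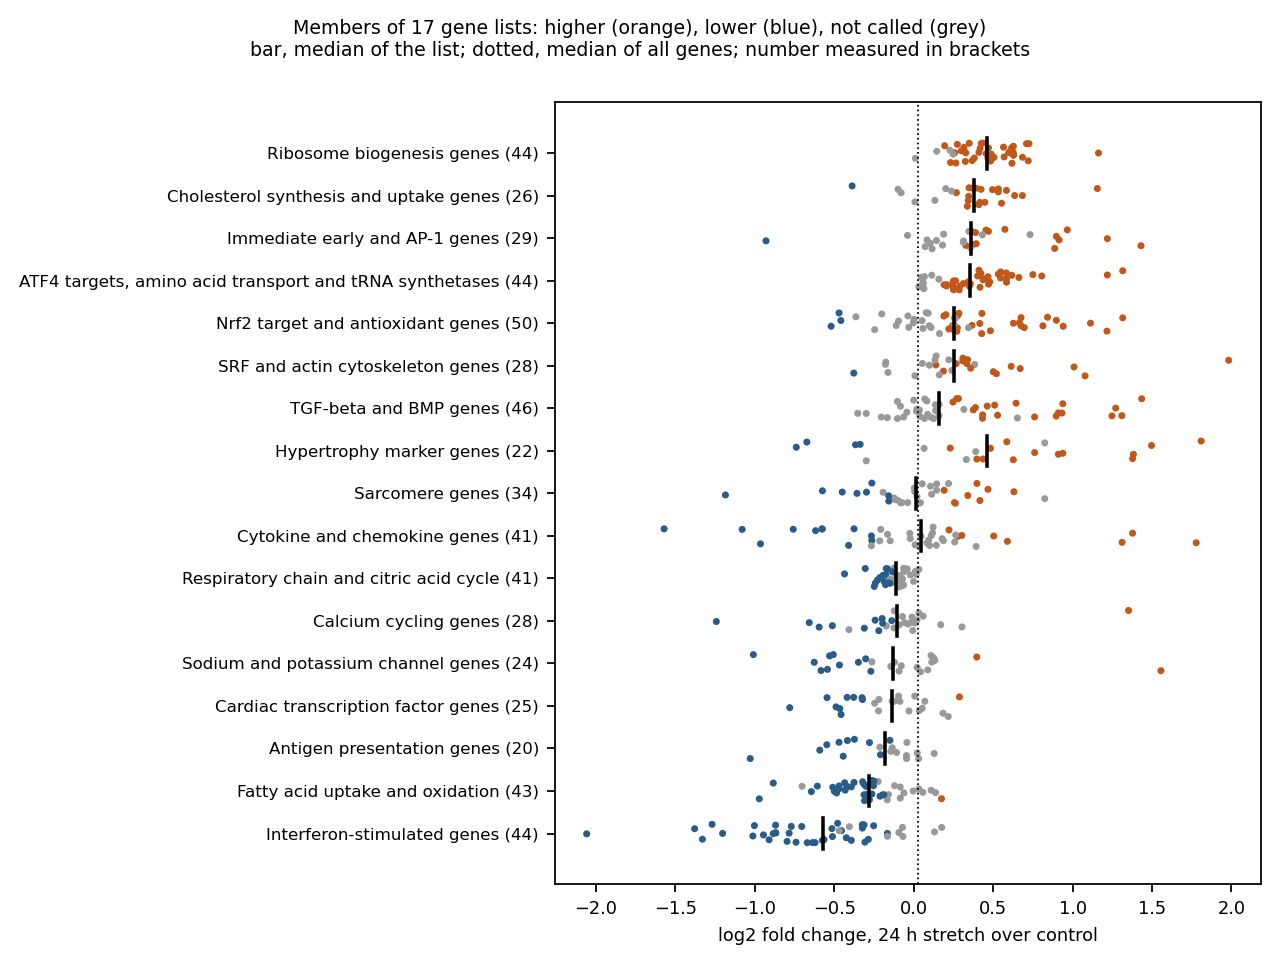
Log2 fold change of 24 h stretch over control for the measured genes of 17 gene lists, with 1 point per gene and a bar at each list's median. The ribosome biogenesis list has its median at 0.46 with 40 of 44 genes upregulated, and the interferon list at -0.57 with 36 of 44 downregulated, beside a median over all genes of 0.03.

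Mx1, the gene with the deepest fall of all, belongs to the interferon-stimulated genes, which type I interferons switch on through transcription factors such as STAT2 and IRF9 and which block viruses. Of 44 measured genes 36 were downregulated and none upregulated (1 upregulated without replicate 2 of 24 h), with a median of -0.57, and 21 of the 36 passed 1.5-fold. Effectors fell in 30 of 33 cases and signal transducers and interferon regulatory factors in 6 of 11. Mx1, an antiviral dynamin-like GTPase, read 49.4, 33.4, 44.3, 38.2 and 39.1 on the 24 h arrays, against 168, 204, 172, 191 and 122 on the control arrays. The brightest stretched array was far below the dimmest control, and the level was 0.240 of control (log2 -2.06, SE 0.31, adjusted p = 0.000259). Mx2 read 628, 431, 525, 413 and 525 on the 24 h arrays, against 1319, 1437, 1393, 1275 and 920.2 on the control arrays. Its replicate 5 of control was the dimmest control by far and still above every stretched array, and the level was 0.398 of control (adjusted p = 0.000444). Ifit3, of a family that binds foreign RNA, read 78.7, 47.6, 71.9, 57.4 and 67.3 on the 24 h arrays, against 185, 162, 205, 169 and 119 on the control arrays, and it stood at 0.384 of control (adjusted p = 0.000119). Rtp4, a receptor-transporting protein induced by interferon, stood at 0.415 of control (adjusted p = 5.54e-05). Ddx60, an interferon-induced helicase that is not among the 44, read 93.4, 102, 122, 90.4 and 114 on the 24 h arrays, against 315, 346, 352, 383 and 191 on the control arrays. The controls other than replicate 5 were about alike, and the level was 0.335 of control (adjusted p = 0.000357). Over the alternative fits and leave-outs between 31 and 38 of the 44 genes were downregulated.

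The core of the interferon-stimulated response element, which is GAAA, then 2 bases of any kind, then GAAA, on either strand, was present in 2.99% of all windows, in 28 of the 182 windows of genes at least 1.5-fold lower (15.4%), in 3 of the 191 of higher genes (1.57%) and in 20 of the 37 windows of measured interferon-stimulated genes (54.1%). The windows of Ifit3 and Ddx60, which both fell by over 1 on the log2 scale, are shown with the element in capitals. The Ifit3 window lies at chr1:241527076-241527375 on the plus strand, with the element written on the opposite strand and its first base 44 bases before the start. The Ddx60 window lies at chr16:33208790-33209089 on the minus strand and holds 2 copies, which begin 73 and 39 bases before the start. These letters were not found in the window of Mx1.
Ifit3: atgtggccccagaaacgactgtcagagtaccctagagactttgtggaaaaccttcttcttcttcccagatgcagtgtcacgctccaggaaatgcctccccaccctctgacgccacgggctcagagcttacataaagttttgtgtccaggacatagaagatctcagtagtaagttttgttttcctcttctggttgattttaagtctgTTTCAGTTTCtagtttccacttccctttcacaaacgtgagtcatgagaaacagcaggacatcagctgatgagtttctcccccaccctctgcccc
Ddx60: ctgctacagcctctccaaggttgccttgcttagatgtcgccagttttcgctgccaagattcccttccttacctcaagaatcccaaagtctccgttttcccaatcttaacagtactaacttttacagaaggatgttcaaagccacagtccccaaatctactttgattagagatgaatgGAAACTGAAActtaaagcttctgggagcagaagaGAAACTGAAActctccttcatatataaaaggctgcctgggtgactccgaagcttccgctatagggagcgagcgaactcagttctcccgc

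**Figure D4:**
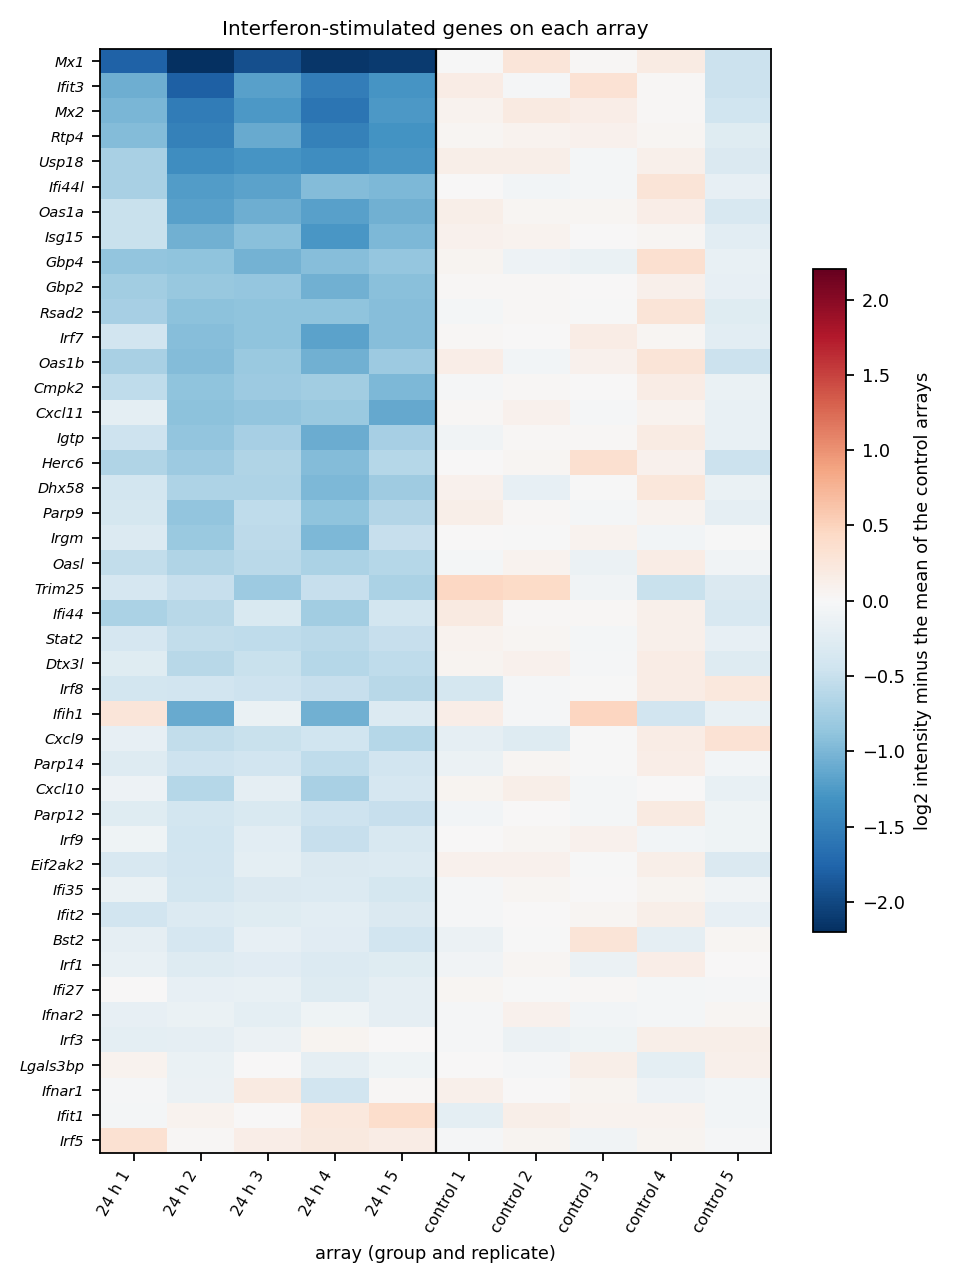
Log2 intensity of 44 interferon-stimulated genes (rows) on the 5 arrays of 24 h stretch and, to their right, the 5 control arrays, each minus the mean of the control arrays of that gene. Of these genes 36 were downregulated, Mx1 at the extreme with a mean of -2.06 at 24 h, and replicate 5 of control is the dimmest control for several genes, Mx1, Mx2 and Rtp4 among them.

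Antigen presentation genes fell in 10 of 20 cases and rose in none, at a median of -0.18. Cd74, the invariant chain of class II molecules, read 126, 102, 123, 143 and 110.3 on the 24 h arrays, against 248, 253, 344, 216 and 189.5 on the control arrays. The groups did not overlap, and the level was 0.490 of control (log2 -1.03, SE 0.13, adjusted p = 5.32e-05). The immunoproteasome subunits Psmb9 and Psmb8 had log2 fold changes of -0.55 (adjusted p = 9.31e-05) and -0.47 (adjusted p = 0.00019). The class I gene RT1-T24-3, which read 753, 444, 538, 405 and 427 on the 24 h arrays, against 1093, 1207, 1346, 1404 and 1037 on the control arrays, stood at 0.413 of control, and RT1-S3 at 0.664. Rat class I genes are near-copies of each other, so these probes may read more than 1 of them. The 14 macrophage markers summed to 6334 to 6915 on the 24 h arrays, against 7639 to 8519 on the control arrays, without overlap, 5 of them were downregulated and none upregulated, and 4 were dim in both groups. The mannose receptor Mrc1 fell by 0.66 on the log2 scale and the complement subunit C1qa by 0.37 (adjusted p = 0.0119). The part of macrophages in the interferon, antigen presentation and chemokine results was not tested.

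Cytokine genes changed in both directions and the chemokines that were called fell. Of 24 cytokines, receptors and their signalling genes 8 were upregulated and 5 downregulated, and of 17 chemokines none was upregulated and 6 were downregulated. Cxcl13, the chemokine that draws B cells, read 787, 414, 721, 488 and 599 on the 24 h arrays, against 1818, 1865, 1767, 1998 and 1330 on the control arrays. The groups were far apart, at 0.336 of control (log2 -1.57, SE 0.17, adjusted p = 2.02e-05). Cxcl12, added after its values were seen, stood at 0.473 of control with 509 to 985 on the 24 h arrays, against 1327 to 1604 on the control arrays. The IL-33 receptor Il1rl1, known as ST2, read 753, 1002, 809, 1103 and 969 on the 24 h arrays, against 292, 378, 322, 462 and 421 on the control arrays. It rose 2.48-fold without overlap (adjusted p = 1.62e-05). The adhesion molecule Vcam1 fell to 0.517 of control, and among 17 complement genes 6 were downregulated and 1 upregulated (9 downregulated without replicate 1 of 24 h, and none upregulated without replicate 2 of 24 h or replicate 1 or 3 of control), with the lectin pathway protease Masp1 at 0.623 of control on its brightest probe set only.

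**Figure D5:**
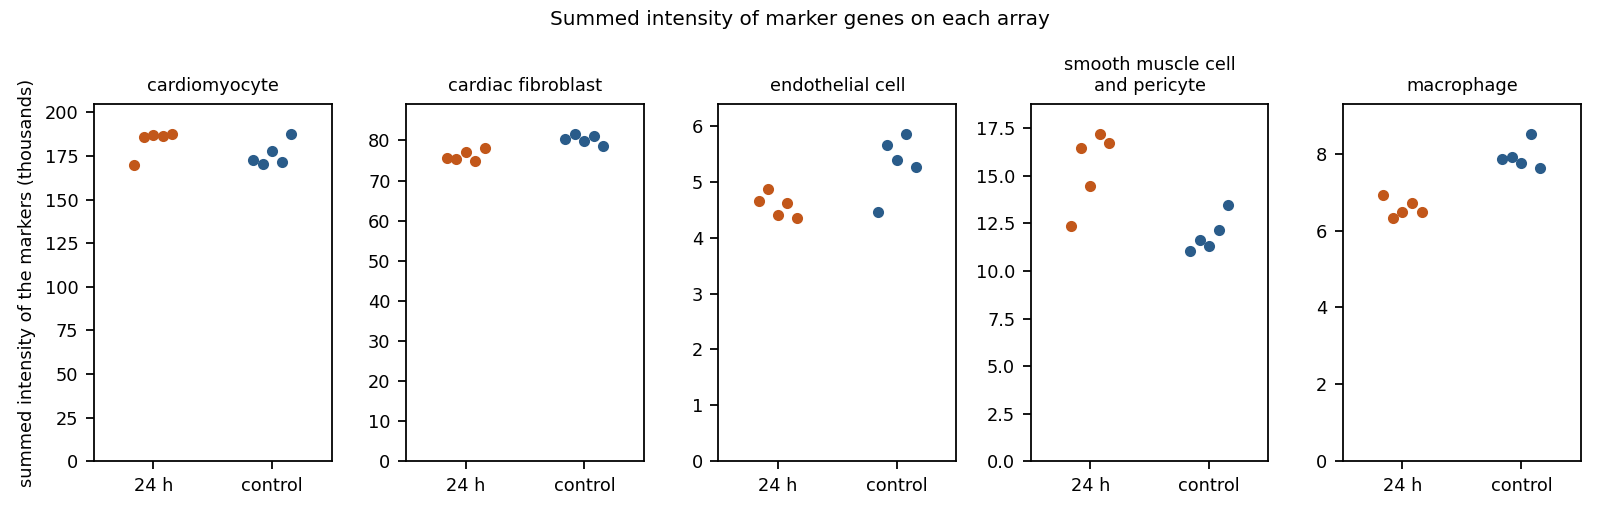
Summed intensity (in units of 1000, linear axis) of 5 lists of cell type markers on each array, with the 24 h arrays left of the control arrays. The macrophage sums of the 24 h arrays lie below those of the control arrays without overlap, at 6334 to 6915 against 7639 to 8519. So do the fibroblast sums, at 74772 to 78171 against 78601 to 81696, and the cardiomyocyte sums overlap. Bright markers weigh most in a sum. By gene, 3 of 14 fibroblast markers were upregulated and 1 downregulated, at a median log2 fold change of -0.03.

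Growth factors of vessels, listed together with fibroblast growth factors, fell more than they rose, 10 of 34 against 3, and 7 of the 10 passed 1.5-fold. Vegfd, which acts on lymphatic vessels, read 179, 94.0, 195, 62.5 and 141 on the 24 h arrays, against 355, 297, 519, 168 and 353 on the control arrays. Its arrays varied widely in both groups and overlapped, with replicate 4 dimmest in each, and the level was 0.389 of control (adjusted p = 0.00657). Angiopoietin 2, Angpt2, read 219.9, 226, 226, 195 and 177 on the 24 h arrays, against 307, 411, 413, 442 and 339.7 on the control arrays. It was tight in both groups and stood at 0.549 of control (adjusted p = 3.73e-05). The fibroblast growth factors Fgf12, which stays inside the cell, and Fgf18 stood at 0.480 and 0.576 of control. The endothelial VEGF receptor Kdr had a log2 fold change of -0.56 (adjusted p = 5.54e-05), and thrombomodulin, Thbd, of the endothelial surface, -0.63 (adjusted p = 0.00176). The 12 endothelial markers summed to 4343 to 4865 at 24 h, against 4449 to 5859 in control, with 5 downregulated and 1 upregulated, and their part in the vessel genes was not tested. Of 16 genes of the insulin-like growth factor system 2 rose and 3 fell (1 rose without any 1 of replicates 2, 3 and 5 of 24 h or 1, 2, 3 and 5 of control), beside 13.5% and 10.1% over all genes. The binding protein Igfbp3 stood at 0.483 of control (608 to 961 on the 24 h arrays, against 1305 to 1890 on the control arrays).

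Cell cycle, survival and clock genes changed in few members. Of 45 cell cycle genes 11 were upregulated and 2 downregulated, but the number upregulated was 6 without replicate 4 of both groups, between 4 and 7 without any 1 of replicates 2 to 5 of 24 h or 1 to 4 of control, and up to 14 with array weights. Cyclin D1, Ccnd1, which drives cells into the cycle, rose 1.71-fold (adjusted p = 0.000228) and the inhibitor Cdkn1a 1.57-fold (adjusted p = 0.00164), while the inhibitor Cdkn1c stood at 0.574 of control (adjusted p = 2.69e-05). None of these 3 overlapped between groups. Of 18 BCL2 family and apoptosis genes 2 rose and 4 fell: the killer protein Bcl2l11, or BIM, read 1017, 886, 1033, 794 and 924 on the 24 h arrays, against 1594, 1755, 1492, 1710 and 1488 on the control arrays, and Bak1 rose by 0.52 on the log2 scale (adjusted p = 0.00655). Bcl2l11 was at 0.578 of control (adjusted p = 7.50e-05). Of 18 clock genes 4 rose and 1 fell (2 rose without replicate 2 or 5 of 24 h or replicate 2 of control, and 2 fell without replicate 5 of control), with the deadenylase Noct at 0.96 (adjusted p = 0.00812) and Per3 at -0.64 (adjusted p = 7.33e-05) on the log2 scale. Of 18 retinoic acid genes 1, the retinaldehyde dehydrogenase Aldh1a3, rose (log2 0.86) and 3 fell (5 without replicate 1 of 24 h, and 2 rose without replicate 5 of control), and of 18 FoxO and insulin signalling genes 3 rose and 3 fell, among them the PI3-kinase inhibitor Pik3ip1 (log2 -0.62). Over all genes 13.5% were upregulated and 10.1% downregulated, so counts this small say little about the groups of 18.

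Some of the genes that fell most belonged to none of these groups. Fmo2, a flavin-containing monooxygenase, read 66.3, 46.1, 44.5, 46.1 and 36.8 on the 24 h arrays, against 156, 165, 142, 204 and 123 on the control arrays. All its stretched arrays were below all controls, at 0.302 of control (log2 -1.73, SE 0.14, adjusted p = 2.21e-06). Bend5, a BEN domain protein, stood at 0.416 and Gabrb2, a subunit of the GABA-A receptor, at 0.421 of control, each without overlap, and a second Gabrb2 probe set, dim in both groups, was not called (log2 0.10). Of the 904 probe sets past 1.5-fold, 278 read no single annotated gene, 84 of them higher and 194 lower. The identifier list of the study names 97 of these. One of those so named, chosen after its values were seen, was the Wnt antagonist DKK2 with a log2 fold change of -1.04 (adjusted p = 3.88e-05).

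The direct comparison of 48 h with 24 h of stretch asked where the second day differed, and it uses the same 24 h arrays as the contrast with control, so that a value high by chance at 24 h enters both. It called 1236 genes (8.69%), and 66 of the genes named here were among them. Some falls went further in 48 h cells: Cxcl13 stood at 0.247 of its 24 h level (adjusted p = 9.51e-06), Dhrs7c at 0.324 (adjusted p = 0.000199), Cd74 at 0.477 (adjusted p = 0.00014) and Rxrg at 0.412 (adjusted p = 0.000116). For Myl7, which was 0.671 of control after 24 h and 0.267 after 48 h, the ratio of 48 h to 24 h was 0.397. Myl4, higher after 24 h, stood in 48 h cells at 0.509 of its 24 h level (adjusted p = 0.00852). Areg, Bdkrb2, Il1rl1 and Rrp12 were higher again after 48 h, by 1.87-fold, 1.72-fold, 1.597-fold and 1.57-fold over 24 h. Differences between the days were not called for Serpinb2 (48 h over 24 h 0.722, adjusted p = 0.465), Ereg (1.05, adjusted p = 0.906), Nppa (1.02, adjusted p = 0.981) or Mx1 (0.909, adjusted p = 0.882).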

How the data were processed

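RNA of 35 samples was hybridised to Affymetrix Rat Genome 230 2.0 arrays, 1 sample per array. The deposited table holds linear intensity values that the authors computed by RMA in GeneSpring GX 12.6 from scans read with GCOS 1.2, per the submitters' processing notes and the methods; no genome build enters at this step, and columns of the authors' own comparisons were not used. RMA normalizes arrays to each other, which hides a shift common to all genes. In the 15 arrays of the second experiment 156 values in 137 probe sets had been turned into dates by a spreadsheet, and they were turned back to the numbers they spell.

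Values were taken to log2 and fitted with limma 3.58.1 in R 4.3.3, with 1 mean for each of control, 24 h and 48 h and Benjamini-Hochberg adjustment over 31042 probe sets, leaving out 57 array controls. This left 12 residual degrees of freedom and a median residual SD of 0.12. Gene names come from the platform annotation, which gives 1 gene to 20826 probe sets, several to 436 and none to 9780. Gene lists were described by counts and medians and not tested as sets. The members and lists were chosen with earlier results of these data known.

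Named were the 12 genes that rose and the 12 that fell most among called genes past 1.5-fold whose groups did not overlap, up to 4 called members of each list with the largest change and up to 2 against its majority, and the genes that the study measured by another method. Alternatives were other arrays in the fit, no moderation of variances, a trend with robust estimation, array weights, median centring, quantile normalization, a filter on dim probe sets, dropped converted values, genes in place of probe sets, a replicate block and leaving out each array. The fit was checked on simulated data. Promoter windows are RefSeq sequence of GRCr8.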

Additional observations from a re-analysis of the deposited data

Results flagged for a closer look

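The day-to-day difference was tested for all 150 named genes with limma, as 48 h over 24 h of stretch, and 66 had an adjusted p under 0.05. The 24 h arrays stand in this ratio and in the contrast with control alike. Ratios under 1 mean a lower level in 48 h cells than in 24 h cells.

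Genes that were below control after 24 h and lower again after 48 h made up most of them. Among immune genes the ratios of 48 h to 24 h were Cxcl13 0.247, RT1-T24-3 0.429, Rtp4 0.437, Cd74 0.477, Ddx60 0.517, Mx2 0.592, Vcam1 0.595, C1qa 0.721, Mrc1 0.719, RT1-S3 0.754, Psmb9 0.754 and Psmb8 0.777. Among genes of contraction, calcium and ion channels they were Dhrs7c 0.324, Myl7 0.397, Lrrc10 0.471, Phactr1 0.519, Kcnip2 0.551, Hrc 0.617, Scn4b 0.629 and Atp2a2 0.856, and among transcription factors and receptors Rxrg 0.412, Klf15 0.559, Irx4 0.563, Agtr1a 0.564, Hopx 0.704, Ppargc1a 0.770, Pdgfra 0.757, Egfr 0.761 and Kdr 0.794. Metabolic genes had ratios of Pgam2 0.434, Ckm 0.572, Cox8b 0.602, Hadh 0.605, Gamt 0.626, Pfkm 0.717, Abca1 0.734 and Idh2 0.816. The others with lower levels were Igfbp3 0.528, Fmo2 0.539, Pik3ip1 0.582, Bcl2l11 0.598, Bend5 0.601, Gabrb2 0.603, Fmod 0.606, Mmp9 0.626, Thbd 0.638, Cdkn1c 0.722 and Nid2 0.753.

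Genes that were above control after 24 h and higher again after 48 h had ratios of Areg 1.87, Bdkrb2 1.72, Il1rl1 1.597, Rrp12 1.57, Ramp3 1.53, Inhba 1.51, Col12a1 1.47, Hspa4l 1.44, Mmp16 1.40, Cdkn1a 1.39, Rgs2 1.35, Mgst2 1.33, Ptgis 1.29, Pfkp 1.28 and Idi1 1.25. Myl4 (0.509) and Sdf2l1 (0.7096) were above control after 24 h and lower in 48 h cells than in 24 h cells. Spp1, not called after 24 h, had a ratio of 1.37.

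In 25 of 300 groups of 5 arrays, 1 array stood apart from the other 4 by Dixon's test. Chance marks about 1 group in 20, and these genes are not independent. The array was most often replicate 1 of 24 h. It read lower than the other 4 stretched arrays, nearer to control, for Casq1 366 against 1098 to 1334, Cnn1 112 against 403 to 530.2, Col12a1 330.3 against 499 to 582, Creld2 809 against 1041 to 1153, Cyp51 4656 against 5550 to 5904, Nppa 9010 against 15813 to 17997, Sdf2l1 523 against 807 to 869, Slc7a3 123 against 222 to 256 and Tcap 2596 against 3081 to 3189. It read higher than the others, again nearer to control, for Agtr1a 828 against 563 to 610.5, Atp2a2 15552 against 14082 to 14334, Kcnd2 96.0 against 64.5 to 71.3, Mmp9 296 against 222 to 240.5, RT1-S3 773 against 695 to 705 and Scn4b 576 against 369 to 418. Replicate 4 of 24 h stood apart for Col8a2 855 against 599 to 619, Mef2d 449 against 359 to 379.8 and Tnfrsf12a 3279 against 2320 to 2514, and replicate 5 of 24 h for Fgf12 45.9 against 62.5 to 66.9. Among the controls, replicate 5 stood on the side of the stretched arrays for Casq1 654 against 301 to 363, Ddx60 191 against 315 to 383, Mx2 920.2 against 1275 to 1437, Rtp4 805 against 996 to 1031 and Tagln 1371 against 862 to 958, and replicate 4 for Pla2g4a 249 against 206 to 217. All these are array intensities.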

How the results depend on the processing

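Counts of called probe sets depended little on how the variance was modelled or the arrays scaled. Past 1.5-fold there were 904, with 868 to 1049 over the fits on all probe sets of the same arrays that neither averaged genes nor dropped dim or converted values. Taking 1 probe set per gene gave 476 (246 higher and 230 lower), 100 past 2-fold (40 of them lower) and 1608 lower with no fold limit. The mean of all probe sets of a gene gave 407 (219 and 188), 85 past 2-fold (50 and 35) and 3525 with no fold limit (1485 lower), fewer because fewer features were tested. The share of higher ones among those past 1.5-fold was 43.0%, and 49.2% with arrays centred on their median, 51.7% with 1 probe set per gene and 53.8% with gene means. Centring moved the median log2 fold change over all probe sets to 0.05, beside 0.02 as deposited. With 1 array left out the counts ran from 819 to 1022 past 1.5-fold, from 143 to 204 past 2-fold and from 4374 to 5651 with no fold limit, where all arrays gave 5672. Without replicate 4 of both groups, chosen after seeing the data, they were 842, 148 and 4726. With the replicate number as a block 913 probe sets passed 1.5-fold and 5468 passed with no fold limit. On the 10 arrays of 24 h and control alone the counts were 883 and 5133 without the block. With it, a fit chosen after seeing the data, they were 944 and 6278. Same-numbered arrays of 24 h and control deviated together with correlations of 0.161, 0.174, 0.539, 0.521 and 0.035. The labels do not tie the numbers to cultures, so they were not taken as pairs, and whether they are pairs was not tested. Replicates 3 and 4 of 24 h were the only ones that correlated best with the control of their own number.

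Of 147 called genes named here, 136 kept call and direction under every alternative. The call of Atp2a2, of Myl4 and of Esrrg was lost under many of them, with adjusted p up to 0.184, 0.125 and 0.0876. Those of Abca1, Col8a1 and Kcnk3 were lost without replicate 4 of 24 h, with or without replicate 4 of control, those of Scn4b and Tgfb1 without replicate 4 of both (adjusted p = 0.0701 and 0.0693), and those of Gata6, Mef2d and Sucla2 with gene means (adjusted p = 0.0801, 0.0576 and 0.172). Spp1, not called, ran between -0.036 and 0.146 with 1 array left out, turning to -0.030 without replicate 1 of 24 h and to -0.036 without replicate 3. Ednra, not called, gained the call with the replicate block, array weights or the filter on dim probe sets (adjusted p = 0.0482, 0.0142 and 0.0401), and had 0.00599 with the block on the 10 arrays of both groups, a fit chosen after seeing the data. The cause of these shifts was not tested. Of the named genes 66 differed between 48 h and 24 h, and 54 to 75 over the alternatives. Precision is limited by 5 arrays per group, and dim probe sets carry little signal over background.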

Other observations

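Other probe sets of a named gene did not always share its call. A second bright probe set of Pfkm had a log2 fold change of -0.60 with a wider spread (adjusted p = 0.138), one of Abca1 had -0.16 (adjusted p = 0.226), one of Thbd -0.30 (adjusted p = 0.164) and one of Smtn -0.03 (adjusted p = 0.877). Dim probe sets of Bcl2l11, Cacna1c, Col12a1, Fgf12, Hadh, Irx4, Kcnk3, Kdr, Klf15, Masp1, Per3, Pik3ip1, Rxrg, Srxn1 and Sucla2 were not called either.

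The remaining marker lists overlapped between the groups. The 19 cardiomyocyte markers summed to 169548 to 187731 at 24 h, against 170407 to 187325 in control, with 4 upregulated and 6 downregulated. The 8 mesothelial and epicardial markers summed to 869 to 1111 at 24 h, against 841 to 1124 in control, with 2 upregulated. The 7 Schwann and neural crest markers summed to 2855 to 3143 at 24 h and 2798 to 3111 in control, and the 4 erythroid markers to 410.2 to 690.1 at 24 h and 416.1 to 611.9 in control, with no member called.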
